A study of Mus musculus with 6 samples.

Results

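The 10 genes described here encode receptors of the tumor necrosis factor (TNF) receptor family: Tnfrsf4 (OX40), Tnfrsf9 (4-1BB), Tnfrsf18 (GITR), Tnfrsf1b (TNFR2), Tnfrsf8 (CD30), Cd27, Tnfrsf25 (DR3), Tnfrsf1a (TNFR1), Fas and Tnfrsf19 (TROY). They were chosen by gene symbol, with earlier results of these data known, and all 10 were found among the 15319 genes of the RNA-Seq count table. The study asked how loss of Ku70, the DNA-binding protein encoded by Xrcc6, alters regulatory T cells (Tregs) in tumor-bearing lungs. WT mice carried the Foxp3 Yfp-Cre allele alone, and cKO mice carried Foxp3 Yfp-Cre together with Xrcc6 flox/flox, so both groups expressed Cre from the Foxp3 locus and the deletion was aimed at Foxp3-expressing cells. All mice were on a C57BL/6J background, were 8 to 10 weeks old, and received LLC cells, a mouse Lewis lung carcinoma line, through the tail vein. Tumor-infiltrating Tregs were taken at 21 days, with 3 WT and 3 cKO libraries. The labels do not say whether the libraries of a group came from separate or pooled mice, so p-values measure the spread between these libraries, which may be technical.

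Receptors of this family are bound by trimeric ligands of the TNF family and pass the signal on through TRAF adaptors or, where the receptor has a death domain, through death domain adaptors such as TRADD and FADD. TRAF signaling activates the NF-kB and AP-1 transcription factors and favors survival and proliferation, whereas death domain receptors can also start caspase-8-dependent cell death. Tregs are known for high levels of OX40, GITR, 4-1BB and TNFR2, which act as costimulatory receptors beside the T cell receptor and which rise further on activated Tregs in tumors.

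Levels are in CPM, the count of a gene relative to the library total after TMM scaling, which corrects library totals for differences in composition, and they are listed in the order of replicates 1, 2 and 3. Total counts per library were 19032642 to 21707726 in WT and 20762064 to 23159812 in cKO, so that 3 counts, the limit that a count of 0 allows, equaled 0.133 to 0.156 CPM (counting error only). Xrcc6, the targeted gene, was at 20.9, 63.1 and 23.8 CPM in the WT libraries, against 5.24, 3.51 and 4.18 CPM in the cKO libraries. WT replicate 2 stood apart from the other libraries. It listed 11513 genes with a count against 14442 to 14737 in the others, and 31.4% of the genes at 2 to 5 CPM were at 0 in it, against at most 0.259% in any other library. The comparisons of the 10 receptors are therefore given with and without WT replicate 2. Of the 9 Treg and T cell identity markers, 8 had counts in every library, Foxp3 among them, with a summed level of 4392 to 6145 CPM in WT and 4924 to 5595 CPM in cKO, and Trac was not listed. Macrophage and dendritic cell markers, led by Lyz2, summed to 166, 626 and 609 CPM in the WT libraries, against 209, 425 and 824 CPM in the cKO libraries. CD8 T and NK cell markers summed to at most 22.0 CPM, and B and plasma cell markers to at most 65.0 CPM, in any library. Lung epithelium markers summed to 40.3 to 105 CPM, and endothelial and stromal markers, mostly Pecam1, to 61.6 to 96.6 CPM. In these bulk samples, fewer cells that express a gene and less RNA per cell cannot be told apart.

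The genes lie in a few places of the genome (GRCm38, GENCODE vM21). Chromosome 4 holds 6 of the 10, Tnfrsf1b, Tnfrsf8, Tnfrsf9, Tnfrsf25, Tnfrsf4 and Tnfrsf18, within 10815433 bases. Tnfrsf4 (156013843 to 156016612, plus strand) and Tnfrsf18 (156026164 to 156028895, plus strand) are neighbors, 9551 bases apart with 0 protein-coding genes between them. Cd27 (125232622 to 125237010, minus strand) and Tnfrsf1a (125349362 to 125362484, plus strand) lie together on chromosome 6, Fas is on chromosome 19 (34290666 to 34327772, plus strand), and Tnfrsf19 is on chromosome 14 (60963875 to 61046490, minus strand). Cd27 overlaps Vamp1 and Tnfrsf9 overlaps Camta1, each on the other strand, and Tnfrsf18 overlaps the antisense gene Gm16008. Whether the counting used strand is not given in the sources used here, so reads of such partners may not have been told apart.

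The promoters of the family were read for motifs of NF-kB and AP-1, the factors its signaling is known to activate, and for a forkhead motif. The 250 bases before the RefSeq start (GRCm38.p6) were searched on both strands at the 13 annotated start sites of the 10 genes. The motifs were the NF-kB consensus, AP-1 (TGANTCA) and forkhead (TGTTTAC). NF-kB matches were found at 3 of the 13 start sites, AP-1 matches at 3 and forkhead matches at 0, and 2 start sites held both NF-kB and AP-1. Of 32851 mouse promoter windows of the same length, 7.25% held the NF-kB consensus, 6.75% held AP-1, 3.17% held forkhead and 0.356% held both NF-kB and AP-1. The 4 windows with a match are shown with the match in capitals, and that of Tnfrsf4, the most abundant receptor, is shown as a window with 0 matches. In Tnfrsf9 and Tnfrsf8 the NF-kB capitals are a pair of matches that overlap by all but 1 base.
Tnfrsf9, second start site, chr4:150927749-150927998, plus strand: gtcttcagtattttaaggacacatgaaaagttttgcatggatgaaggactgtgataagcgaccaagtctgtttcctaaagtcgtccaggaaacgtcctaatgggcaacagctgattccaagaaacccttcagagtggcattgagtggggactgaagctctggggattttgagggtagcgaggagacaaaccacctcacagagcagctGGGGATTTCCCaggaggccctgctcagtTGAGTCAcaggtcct
Tnfrsf8, chr4:145315165-145315414, minus strand: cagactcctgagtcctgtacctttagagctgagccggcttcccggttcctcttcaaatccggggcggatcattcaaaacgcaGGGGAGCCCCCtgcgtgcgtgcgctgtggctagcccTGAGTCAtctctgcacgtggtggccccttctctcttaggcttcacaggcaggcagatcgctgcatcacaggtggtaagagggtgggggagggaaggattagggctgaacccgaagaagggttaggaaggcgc
Tnfrsf25, second start site, chr4:152116093-152116342, plus strand: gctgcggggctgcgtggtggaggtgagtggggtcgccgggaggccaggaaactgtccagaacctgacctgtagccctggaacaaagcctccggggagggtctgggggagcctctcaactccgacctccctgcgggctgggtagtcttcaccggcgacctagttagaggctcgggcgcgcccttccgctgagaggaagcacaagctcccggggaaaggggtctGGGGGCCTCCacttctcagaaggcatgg
Fas, chr19:34290409-34290658, plus strand: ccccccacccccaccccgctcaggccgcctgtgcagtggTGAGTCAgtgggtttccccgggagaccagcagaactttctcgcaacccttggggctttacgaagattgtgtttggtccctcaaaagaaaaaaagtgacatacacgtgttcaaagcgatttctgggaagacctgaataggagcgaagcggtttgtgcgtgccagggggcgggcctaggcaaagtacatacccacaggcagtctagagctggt
Tnfrsf4, chr4:156013445-156013694, plus strand: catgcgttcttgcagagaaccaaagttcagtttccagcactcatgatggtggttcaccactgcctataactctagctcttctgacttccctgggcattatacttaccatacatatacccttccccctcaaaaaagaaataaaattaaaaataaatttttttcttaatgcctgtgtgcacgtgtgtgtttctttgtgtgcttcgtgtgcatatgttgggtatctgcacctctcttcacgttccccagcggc
The NF-kB matches began 43 and 42 bases before the start in Tnfrsf9, 168 and 167 bases before it in Tnfrsf8, and 28 bases before it in Tnfrsf25. AP-1 matches began 15 bases before the start in Tnfrsf9, 132 in Tnfrsf8 and 211 in Fas. The first start sites of Tnfrsf9 and Tnfrsf25 and the windows of the other 6 genes held none of these letters, which says nothing of whether the factors bind elsewhere. Whether the motifs bear on the levels of the receptors was not tested.

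Receptor transcript levels spanned a wide range. Per kb of exon, which allows genes of different length to be compared, the mean over the 6 libraries was 1479 ± 387 CPM per kb (SD, n = 6) for Tnfrsf4. Next came Tnfrsf18 at 478 ± 139 CPM per kb, Tnfrsf9 at 313 ± 154 and Tnfrsf1b at 235 ± 61.2. The order went on with Cd27 at 85.5 ± 12.2 CPM per kb, Tnfrsf25 at 39.0 ± 14.5, Fas at 25.6 ± 6.26, Tnfrsf1a at 11.6 ± 2.67 and Tnfrsf8 at 5.90 ± 1.81. Tnfrsf4 was above every other receptor in all 6 libraries, and its lowest library, at 1219 CPM per kb, exceeded the highest library of Tnfrsf18, at 744. The ranges of Tnfrsf18 and Tnfrsf9 overlapped, as did those of Tnfrsf9 and Tnfrsf1b, of Tnfrsf25 and Fas, and of Tnfrsf1a and Tnfrsf8. Within a library, Tnfrsf18 was still above Tnfrsf9 in 6 of 6, and Tnfrsf25 above Fas in 6 of 6, whereas Tnfrsf9 was above Tnfrsf1b, and Tnfrsf1a above Tnfrsf8, in 5 of 6.

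**Figure D1:**
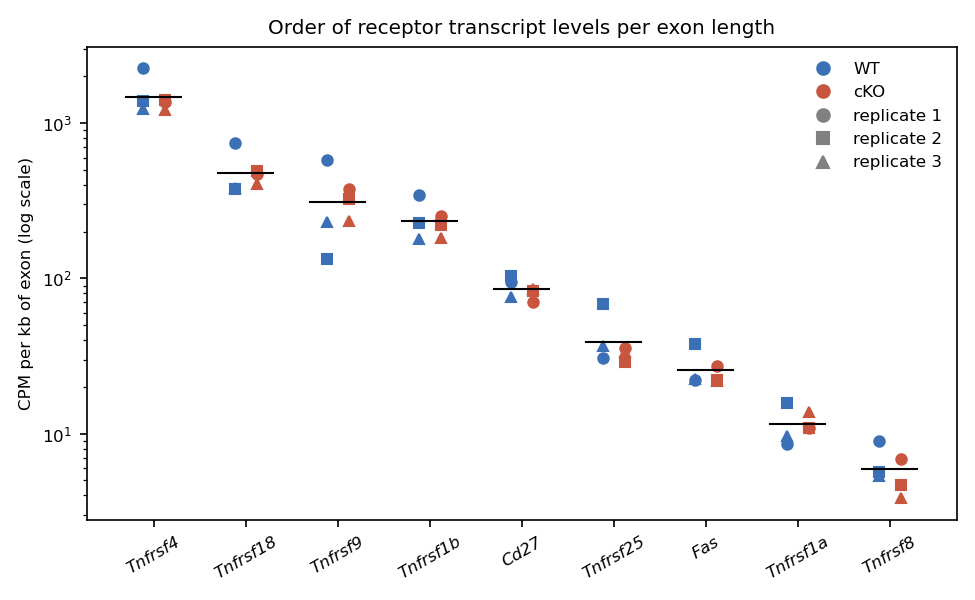
Transcript level of 9 TNF receptor genes in CPM per kb of exon on a log scale, with 1 point per library (blue WT, red cKO, symbol by replicate) and a black line at the mean of the 6 libraries. Tnfrsf4 stands above the other receptors in every library, and the levels fall from a mean of 1479 to 5.90 CPM per kb across the 9 genes.

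The 4 most abundant receptors, Tnfrsf4, Tnfrsf9, Tnfrsf18 and Tnfrsf1b, made up 87.4% to 94.8% of the summed CPM of the 10 genes in each library, without correction for length. That sum was 7484, 4233 and 3926 CPM in the WT libraries, against 4945, 4736 and 3981 CPM in the cKO libraries. WT replicate 1 was the highest of the 6, and the cKO libraries lay between WT replicates 1 and 3. The make-up of the sum was alike in most libraries, with Tnfrsf4 at 38.0% to 44.8%, and the widest departure was Tnfrsf9 at 8.53% in WT replicate 2 against 16.0% to 21.0% in the others.

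The comparison of cKO with WT asks whether the loss of Ku70 in Tregs altered the transcripts of these receptors. By edgeR's quasi-likelihood test over all 6 libraries, 0 of the 10 genes passed an adjusted p of 0.05, as did 0% of the 15315 genes tested. The targeted gene Xrcc6, at a log2 fold change of -3.06, was not called in this fit either (adjusted p = 0.984). The lack of a call therefore does not show the lack of a change. At an unadjusted p under 0.05, 1 of the 10 was called, Tnfrsf19, a gene close to the detection limit, against 1.81% of all genes (277 genes). The study had already reported Tnfrsf19 as raised in cKO, and the 10 genes were chosen with earlier results known. The counts of calls among the 10 are therefore a description and not a test of the family. DESeq2 gave 1 of the 10 at an unadjusted p under 0.05, against 2.01% of all genes (307 genes). After adjustment DESeq2 gave 0 of the 10 and 2 calls among all genes, Xrcc6 among them (adjusted p = 1.2e-05). Without WT replicate 2, edgeR called 2 of the 10 at an unadjusted p under 0.05, Tnfrsf19 and Tnfrsf1a, against 3.01% of all genes, and 0 of the 10 after adjustment, against 0.00654% (1 gene, Xrcc6). DESeq2 without that library called 1 of the 10 before adjustment, against 2.42% of all genes. The fold change was below 0 in 8 of the 10 and above 0 in 2, though Tnfrsf9 (-0.00) turned to above 0 under median-of-ratios scaling and Tnfrsf1a (0.06) to below 0 with library size alone. The median log2 fold change of the 10 was -0.20 beside 0.04 over all genes, and -0.19 beside -0.01 without WT replicate 2. Left without WT replicate 1, the median was -0.03.

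**Figure D2:**
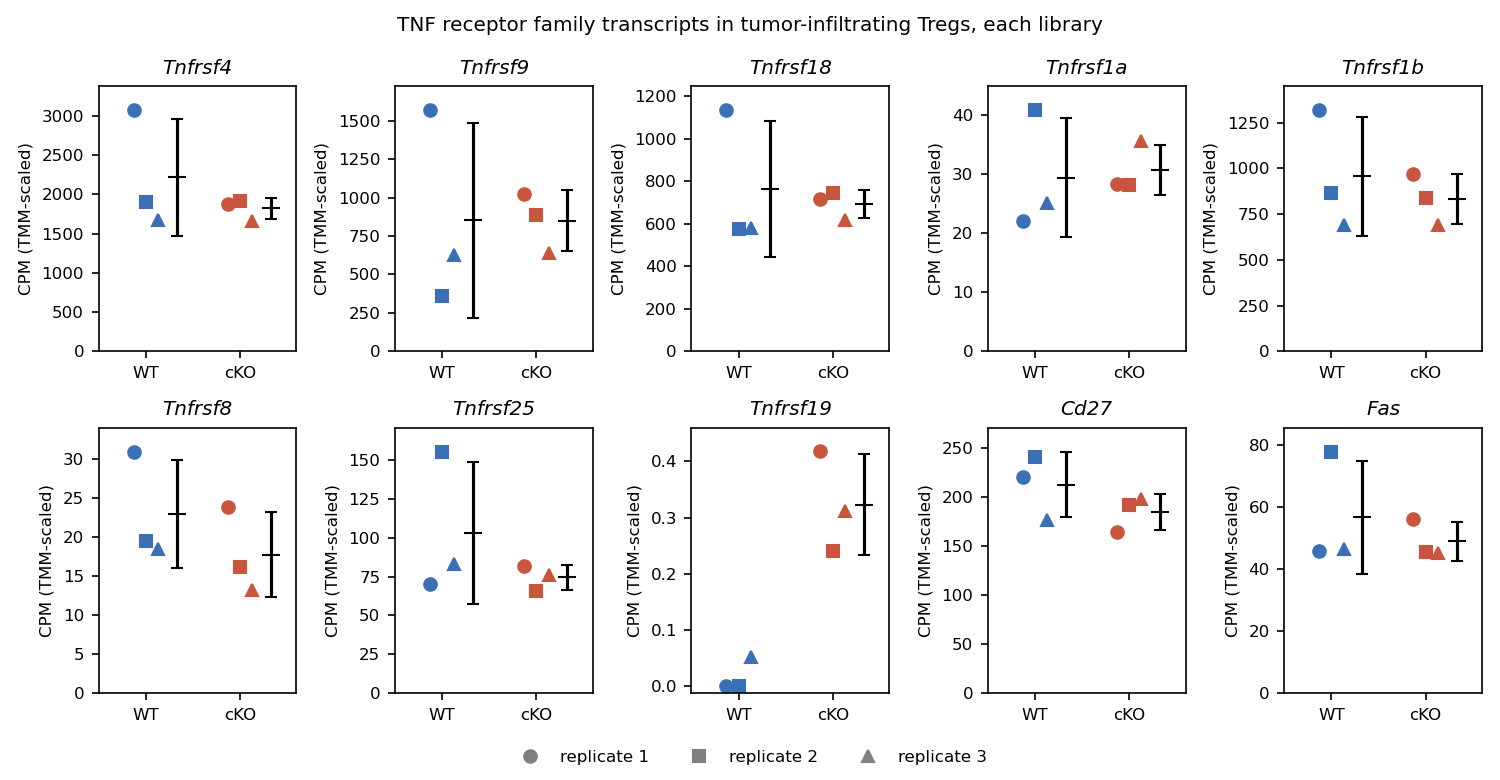
CPM of each of the 10 TNF receptor genes in every library (blue WT, red cKO, symbol by replicate), with the mean and SD of each group of 3 in black, except for Tnfrsf19 in WT, where the libraries are at 0 or 1 count. In Tnfrsf4, Tnfrsf9, Tnfrsf18, Tnfrsf1b and Tnfrsf8 the highest point is WT replicate 1, in Tnfrsf1a, Tnfrsf25, Cd27 and Fas it is WT replicate 2, and the groups are separate only in Tnfrsf19.

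Among the costimulatory receptors that recruit TRAF adaptors, Tnfrsf4, whose product OX40 binds OX40L, was at 3072, 1896 and 1678 CPM in the WT libraries, against 1879, 1920 and 1664 CPM in the cKO libraries. One WT library was far above the rest, and the other 5 lay close together. The mean was 2215 ± 750 CPM in WT and 1821 ± 137 CPM in cKO (SD, n = 3 each). The log2 fold change was -0.28 (SE 0.28, 95% interval -0.94 to 0.38, edgeR p = 0.350, adjusted p = 0.984, exact permutation p = 0.6). It was -0.38 without WT replicate 2 (adjusted p = 0.998, as for the other 9 genes without this library) and 0.03 without WT replicate 1.

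Tnfrsf9 encodes 4-1BB, an activation-induced receptor for 4-1BBL. Its level was 1568, 361 and 628 CPM in the WT libraries, against 1026, 884 and 639 CPM in the cKO libraries. Both the highest and the lowest of the 6 libraries were WT, and the 3 cKO libraries lay between them. The means were 852 ± 634 CPM in WT and 850 ± 196 CPM in cKO, with a log2 fold change of -0.00 (SE 0.50, 95% interval -1.18 to 1.18, edgeR p = 0.994, adjusted p = 0.999, exact permutation p = 1). In linear terms that interval runs from 0.440-fold to 2.26-fold, and the data are compatible with a change anywhere within it. The direction rested on single WT libraries: the log2 fold change was -0.37 with WT replicate 2 left out and 0.78 with WT replicate 1 left out (adjusted p = 0.677).

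Tnfrsf18, the neighbor of Tnfrsf4, encodes GITR, a receptor long used as a Treg surface marker. It stood at 1134, 574 and 582 CPM in the WT libraries, against 715, 745 and 617 CPM in the cKO libraries. As with Tnfrsf9, the cKO libraries were nested within the WT range. Its log2 fold change was -0.14 (SE 0.30, 95% interval -0.84 to 0.55, edgeR p = 0.649, adjusted p = 0.984, exact permutation p = 1). Leaving out WT replicate 2 gave -0.31 and leaving out WT replicate 1 gave 0.26.

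Tnfrsf1b encodes TNFR2, the TNF receptor without a death domain, through which TNF is known to expand Tregs. Its transcript was at 1319, 868 and 689 CPM in the WT libraries, against 968, 838 and 692 CPM in the cKO libraries. The groups overlapped almost wholly apart from WT replicate 1. The difference on the log2 scale was -0.20 (SE 0.28, 95% interval -0.86 to 0.45, edgeR p = 0.492, adjusted p = 0.984, exact permutation p = 0.7). It was -0.27 when WT replicate 2 was left out and 0.10 when WT replicate 1 was.

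Tnfrsf8 encodes CD30, which is induced on activated lymphocytes, and was the least abundant of the clearly detected receptors per kb. Its level was 30.9, 19.6 and 18.5 CPM in the WT libraries, against 23.9, 16.2 and 13.3 CPM in the cKO libraries. The lowest of the 6 were cKO replicates 3 and 2, while cKO replicate 1 exceeded WT replicates 2 and 3. The log2 fold change was -0.37 (SE 0.32, 95% interval -1.11 to 0.37, edgeR p = 0.280, adjusted p = 0.984, exact permutation p = 0.4). It was -0.48 without WT replicate 2 and -0.10 when WT replicate 1 was left out.

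Cd27 encodes the receptor for CD70 and is present on most T cells. It measured 221, 242 and 177 CPM in the WT libraries, against 164, 193 and 198 CPM in the cKO libraries. It had the narrowest spread of the receptors within WT, and the groups still overlapped. A log2 fold change of -0.20 was fitted (SE 0.17, 95% interval -0.60 to 0.19, edgeR p = 0.264, adjusted p = 0.984, exact permutation p = 0.3), and one of -0.10 without WT replicate 2.

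Of the death domain receptors, Tnfrsf25, whose product DR3 binds TL1A and is known to expand Tregs, was at 70.4, 155 and 83.3 CPM in the WT libraries, against 81.7, 66.0 and 76.1 CPM in the cKO libraries. WT replicate 2 was far above the other 5 libraries, which overlapped between groups. Its log2 fold change of -0.46 was the lowest of the 10 (SE 0.29, 95% interval -1.15 to 0.22, edgeR p = 0.155, adjusted p = 0.984, exact permutation p = 0.4). Without WT replicate 2 it was -0.05 (SE 0.14, 95% interval -0.37 to 0.28). Without WT replicate 1 it was -0.67, which passed an unadjusted p of 0.05 but not the adjusted one (adjusted p = 0.677).

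Fas, the receptor for Fas ligand, had the same arrangement. Its transcript was at 45.9, 77.7 and 46.5 CPM in the WT libraries, against 56.3, 45.5 and 45.2 CPM in the cKO libraries. Only WT replicate 2 stood out. The fitted log2 fold change was -0.21 (SE 0.24, 95% interval -0.77 to 0.35, edgeR p = 0.405, adjusted p = 0.984, exact permutation p = 0.5). It turned to 0.08 without WT replicate 2 (95% interval -0.24 to 0.40).

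Tnfrsf1a encodes TNFR1, the broadly expressed TNF receptor with a death domain. It was at 22.1, 40.8 and 25.2 CPM in the WT libraries, against 28.4, 28.1 and 35.6 CPM in the cKO libraries. WT replicate 2 was the highest of the 6 and WT replicates 1 and 3 the lowest. Over all 6 libraries the log2 fold change was 0.06 (SE 0.27, 95% interval -0.56 to 0.69, edgeR p = 0.818, adjusted p = 0.986, exact permutation p = 0.8). Without WT replicate 2 the 3 cKO libraries were above both WT libraries, with a log2 fold change of 0.38 (SE 0.16, 95% interval 0.01 to 0.74, adjusted p = 0.998) that was called only before adjustment. Groups that do not overlap were found for 16.0% of all genes in that comparison. The macrophage and dendritic cell markers were lowest in WT replicate 1, at 166 CPM, where Tnfrsf1a was also lowest, and highest in cKO replicate 3, at 824 CPM, where it was highest among the cKO libraries. In WT replicate 3, however, they were at 609 CPM, above the 209 and 425 CPM of cKO replicates 1 and 2, while Tnfrsf1a was below its level in both. Their part in this result was not tested.

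Tnfrsf19, which encodes TROY, a receptor best known from skin appendages and the nervous system, was barely detected. The study had already reported its rise in cKO from these libraries, so the values here are not independent support for it. Its counts were 0, 0 and 1 in the WT libraries, against 9, 5 and 7 in the cKO libraries. Every cKO library was above every WT library, and Tnfrsf19 was the 1 gene of the 10 whose groups did not overlap, against 8.24% of all genes. The cKO mean was 0.323 ± 0.0893 CPM (SD, n = 3). Summed over each group, 21 counts stood against 1, a ratio of 19.9 at these library sizes, with an exact Poisson 95% interval of 3.20 to 822. That interval covers counting error only, with reads taken as independent, and not the variation between libraries. By edgeR, p was 0.0187 over all 6 libraries (adjusted p = 0.984), and the exact two-sided permutation p was 0.1, the smallest that 3 against 3 can give. Before adjustment it was also called without WT replicate 2, and it was not called without WT replicate 1, cKO replicate 1 or cKO replicate 3, or with the replicate number as a block. The filterByExpr filter on low counts removed it. The sum of the red blood cell markers was also apart between the groups at low levels, at 0 to 9.75 CPM in WT and 10.9 to 36.1 CPM in cKO. Singly, only Hba-a2 and Hbb-bs were apart, against 8.24% of all genes, whereas Hba-a1, Hbb-bt and Alas2 overlapped between the groups. All of these markers were at 0 in WT replicate 2. The summed neutrophil markers overlapped, at 9.99 to 20.5 CPM in WT and 14.7 to 18.3 CPM in cKO. Their members differed, with 4 of the 6 above 0 and 2 below. Retnlg had 0 counts in each WT library and 0.882, 0.624 and 1.51 CPM in the cKO libraries. S100a9 was at 0.0956, 0 and 0.209 CPM in WT, against 1.11, 1.35 and 1.91 CPM in cKO. These 2 markers were called by edgeR at an unadjusted p under 0.05, against 1.81% of all genes, and 0 after adjustment. Cxcr2 had a log2 fold change of -0.58 and Csf3r one of -0.08, neither called. The part of such RNA in the Tnfrsf19 counts was not tested.

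**Figure D3:**
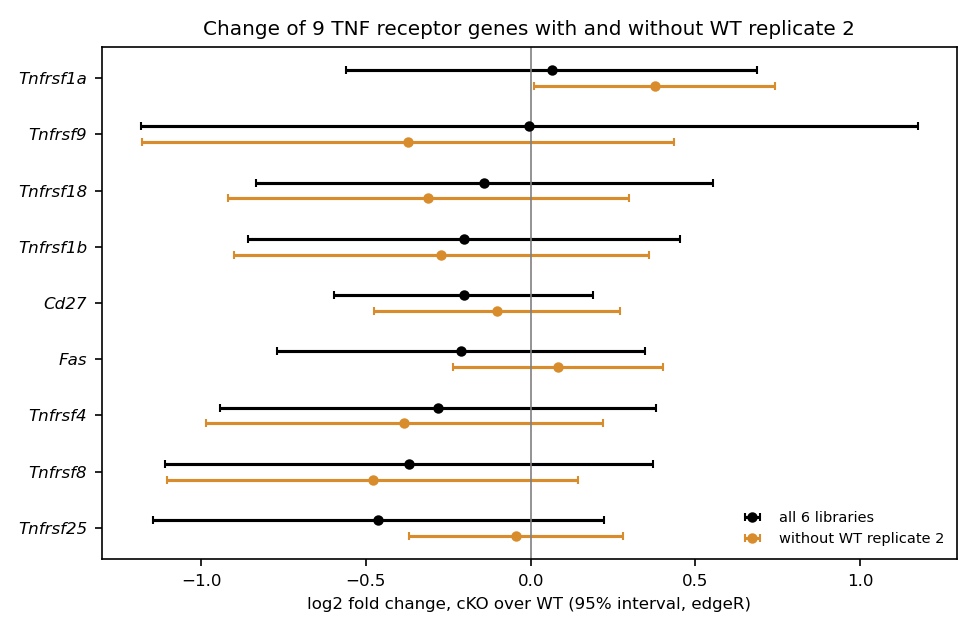
Log2 fold change of cKO over WT for 9 TNF receptor genes with 95% intervals from edgeR, over all 6 libraries (black) and without WT replicate 2 (orange). The black intervals all span 0, and without WT replicate 2 only that of Tnfrsf1a, at 0.01 to 0.74, does not.

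The spread within a group was larger than counting error for each of the 9 receptors above 10 CPM. Counting error was at most 5.79% of a count, reached in Tnfrsf8, and at most 1.14% for the 4 most abundant receptors, while the coefficient of variation among WT libraries was 15.6% for Cd27 to 74.4% for Tnfrsf9. Among cKO libraries it was 7.54% for Tnfrsf4 to 30.9% for Tnfrsf8. The WT libraries were the more variable group, on a log scale, for 8 of the 9 receptors and for 84.8% of the 8447 genes with a mean of at least 10 CPM.

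In 9 of the 10 genes the highest library was WT replicate 1 or WT replicate 2. WT replicate 1 was the highest of the 6 libraries for 5 of the 9 receptors, Tnfrsf4, Tnfrsf9, Tnfrsf18, Tnfrsf1b and Tnfrsf8, none of which has a death domain. WT replicate 2 was the highest for the other 4, which were the 3 death domain receptors and Cd27, whose product has none. Whether receptors with and without a death domain differ in this was not tested. Over the 8447 genes above 10 CPM, WT replicate 1 was the highest library for 19.5% and WT replicate 2 for 37.6%. In WT replicate 1, Tnfrsf9 lay 1.03 above its own mean on the log2 scale and Tnfrsf4, Tnfrsf18, Tnfrsf1b and Tnfrsf8 lay 0.60 to 0.68 above theirs. In WT replicate 2, Tnfrsf25 lay 0.87 above its mean, Fas 0.59 and Tnfrsf1a 0.47, while Tnfrsf9 lay 1.09 below it. WT replicate 1 also had the highest sum of Treg and T cell markers, at 6145 CPM, and the lowest of macrophage and dendritic cell markers, at 166 CPM. Within the first sum, Ikzf2, Cd4, Cd3d and Cd3g were highest in WT replicate 1. Foxp3 and Il2ra were highest in cKO replicate 1, Ctla4 in WT replicate 2 and Cd3e in cKO replicate 3. The part of the cell make-up in this arrangement was not tested.

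**Figure D4:**
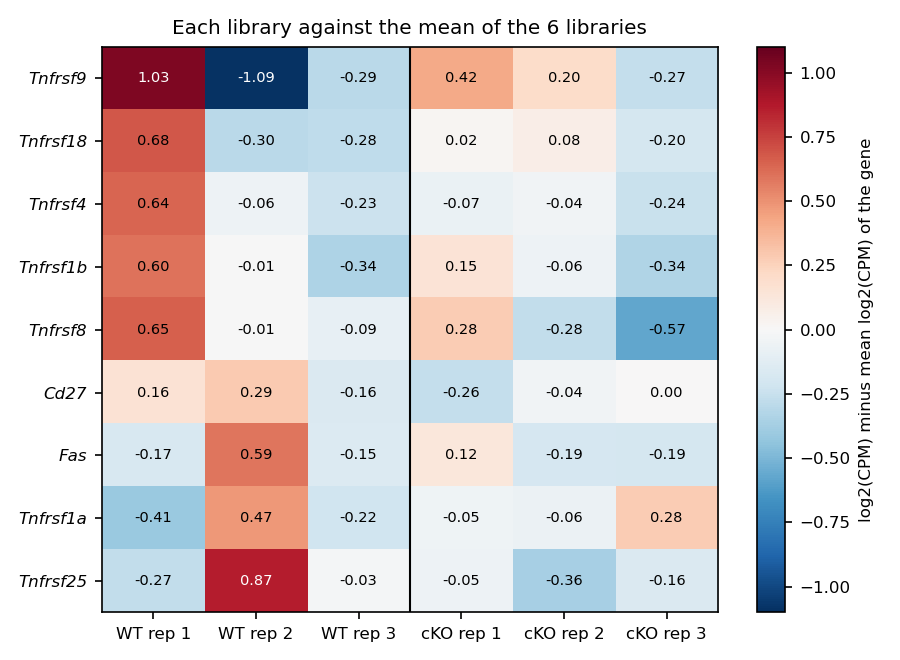
Deviation of each library from the gene's mean over the 6 libraries, in log2(CPM), for 9 TNF receptor genes, with red above and blue below the mean. WT replicate 1 is red for the upper 5 genes, from 0.60 to 1.03, and WT replicate 2 is red for the 3 death domain genes at the bottom, from 0.47 to 0.87. Cd27, which lies between them and has no death domain, is above its mean in both libraries, at 0.16 and 0.29.

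Ratios of a pair of receptors within a library do not depend on scaling between libraries. The ratio of Tnfrsf4 to its neighbor Tnfrsf18 was 2.71, 3.30 and 2.88 in the WT libraries, against 2.63, 2.58 and 2.70 in the cKO libraries. The cKO ratios were all below the WT ratios, although the nearest values, 2.70 and 2.71, were almost equal. The exact two-sided permutation p was 0.1, the smallest possible, and 0.3 after adjustment over the 3 ratios examined. The mean log2 difference was -0.17, and -0.09 without WT replicate 2. The ratio of Tnfrsf1b to Tnfrsf1a, the pair of receptors for TNF, was 59.8, 21.3 and 27.4 in WT and 34.2, 29.8 and 19.5 in cKO, which overlapped (exact permutation p = 0.7). Its mean log2 difference was -0.27, and -0.58 without WT replicate 2. Tnfrsf9 to Tnfrsf4 was 0.511, 0.190 and 0.374 in WT and 0.546, 0.460 and 0.384 in cKO, also with overlap (exact permutation p = 0.4). Here the mean log2 difference was 0.47, and 0.07 without WT replicate 2.

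Ligands of these receptors were transcribed at widely different levels in the same libraries. Of the 9 ligand genes, 4 had a fold change above 0 and 5 below, 1 was called at an unadjusted p under 0.05, where 1.81% of all genes were, and 0 after adjustment. Their median was -0.13, and -0.19 without WT replicate 2. The called gene was Lta, which encodes lymphotoxin alpha, a ligand of TNFR1 and TNFR2. It was at 40.3, 69.4 and 43.8 CPM in the WT libraries, against 34.4, 31.0 and 27.8 CPM in the cKO libraries. All 3 cKO libraries were below all 3 WT libraries, and below the other two when WT replicate 2 was left out. Groups did not overlap for 8.24% of all genes, and for 16.0% without that library. The log2 fold change was -0.72 (SE 0.24, adjusted p = 0.984). Without WT replicate 2 it was -0.44, and Lta was again called before adjustment, as were 3.01% of all genes. Highest in mean CPM, which is not corrected for length, were Tnfsf8 (CD30L) at 235, Tnf at 57.1 and Tnfsf9 (4-1BBL) at 44.5. Tnf was at 49.4, 26.7 and 70.7 CPM in WT and at 67.3, 65.1 and 63.6 CPM in cKO, with overlap and a log2 fold change of 0.42 (SE 0.32, adjusted p = 0.984). Tnf was lowest in WT replicate 2, without which the value was 0.12. The other TNF family ligands had 7 of 9 above 0, with 0 called and a median of 0.10 that was -0.07 without WT replicate 2. Ltb (lymphotoxin beta) led them at 565 CPM, before Tnfsf11 (RANKL) at 61.0 and Cd40lg at 41.8.

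Of the 18 other receptor genes of the family, 15 were listed, 10 with a fold change above 0 and 5 below. At an unadjusted p under 0.05, 0 of them were called, against 1.81% of all genes. Their median was 0.38, and 0.16 without WT replicate 2. There 2 were called before adjustment, against 3.01% of all genes, and 0 after it. They were Tnfrsf22 at a log2 fold change of 0.41 and Tnfrsf26 at 0.66. Of the listed genes, Cd40, Ltbr, Tnfrsf13c, Tnfrsf21 and Tnfrsf23 were at 0 in WT replicate 2 alone. These 7 genes were named after their values were seen. Highest in CPM were Tnfrsf14 (HVEM) at 60.7 CPM, Tnfrsf10b, the TRAIL receptor, at 50.6 and Tnfrsf13b (TACI) at 45.8.

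Of the 9 genes for TRAF adaptors, cIAPs and the NF-kB-inducing kinase, 2 had a fold change above 0 and 7 below, with a median of -0.06 that was 0.01 without WT replicate 2. Traf3, whose product restrains noncanonical NF-kB signaling, was the 1 of 9 called over all 6 libraries, against 1.81% of all genes. It was at 148, 221 and 138 CPM in the WT libraries, against 137, 103 and 97.8 CPM in the cKO libraries. The groups did not overlap, as for 8.24% of all genes, although cKO replicate 1 nearly reached WT replicate 3. On the log2 scale the difference was -0.59 (SE 0.23, adjusted p = 0.984), and -0.35 without WT replicate 2, where Traf3 was no longer called. There Map3k14, which encodes the NF-kB-inducing kinase and was named after its values were seen, was called before adjustment instead, as were 3.01% of all genes. Its log2 fold change was 0.34 (adjusted p = 0.998) against 0.13 over all 6 libraries. Traf1, an adaptor of TNFR2 and 4-1BB, was the highest at 512 CPM, before Birc3 (cIAP2) at 303 and Traf4 at 171.

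The death domain adaptor and caspase-8 genes gave 0 calls of 5 over all 6 libraries, against 1.81% of all genes. Of these genes 2 were above 0 and 3 below, with a median of -0.01 with and without WT replicate 2. Cflar (c-FLIP), which blocks caspase-8, led at 141 CPM, before Casp8 at 107 and Ripk1 at 50.3. Ripk1 averaged 38.8 ± 19.5 CPM in WT, with WT replicate 2 the lowest at 16.3, and 61.9 ± 2.61 CPM in cKO. Its log2 fold change was 0.68 (SE 0.39, adjusted p = 0.984). Without WT replicate 2 it was 0.31, and Ripk1 was called before adjustment (adjusted p = 0.998), as were 3.01% of all genes. Of the 8 ubiquitin ligase and deubiquitinase genes of the receptor complex, 5 were above 0 and 3 below, with a median of 0.02 that was 0.07 without WT replicate 2. Tnfaip3 (A20), an NF-kB-induced brake on this signaling, reached a mean of 3722 CPM, before Rbck1 at 193 and Tnip1 at 171. The log2 fold change of Tnfaip3 was 0.03 (SE 0.27, adjusted p = 0.996), and 0.18 without WT replicate 2. Spata2, which links CYLD to the complex, was the 1 of 8 called over all 6 libraries, against 1.81% of all genes. It was at 50.7, 42.1 and 41.2 CPM in WT and 57.0, 57.0 and 56.1 CPM in cKO. The cKO libraries were all above the WT libraries, as groups were apart for 8.24% of all genes, with a log2 fold change of 0.34 (SE 0.15, adjusted p = 0.984), and of 0.30 without WT replicate 2, where Spata2 was no longer called.

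**Figure D5:**
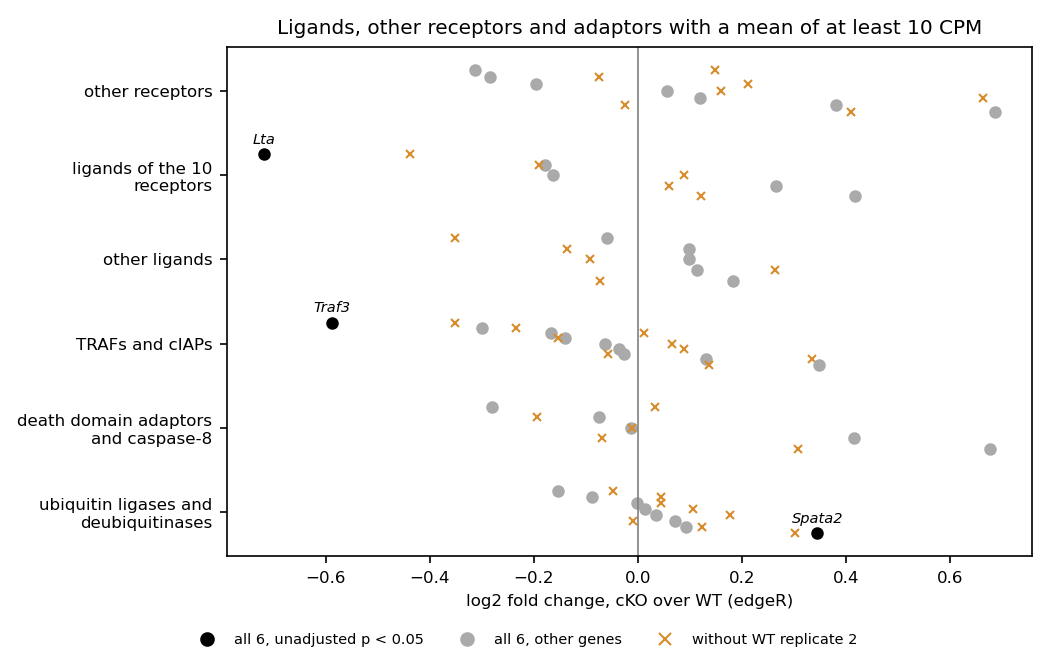
Log2 fold change of cKO over WT for ligands, other receptors and adaptors with a mean of at least 10 CPM, each point a gene over all 6 libraries (black at an unadjusted p under 0.05, otherwise gray) and each orange cross the same gene without WT replicate 2. Lta at -0.72, Traf3 at -0.59 and Spata2 at 0.34 are the 3 black points, and their crosses lie nearer to 0.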

How the data were processed

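Tumor-infiltrating Tregs of 3 WT and 3 cKO libraries were measured by RNA-Seq with paired-end reads of 150 bases. Reads were aligned to GRCm38 by the authors, who deposited estimated counts for each gene symbol with no normalization. Submitters' processing notes name Bowtie2 (version 2.3.4.3) and RSEM (version 1.3.1). The annotation and the use of strand are not given in the sources used here. Counts were rounded to whole numbers (of all values, 21.7% were not whole, and 0 of the 60 values of the 10 receptors). Genes with at least 1 count (15315 of 15319) were scaled by TMM and compared with the quasi-likelihood test of edgeR (version 4.0.16) in R (version 4.3.3), with Benjamini-Hochberg adjustment over all genes. Single genes and ratios within a library were also compared by exact two-sided permutation tests. Libraries of a group differed beyond sampling noise and each counted as 1 sample.

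The alternatives were DESeq2 (version 1.42.0), the study's tool, other scalings, edgeR's filterByExpr, limma's voomWithQualityWeights (limma version 3.58.1), the replicate number as a block and each library left out. A DESeq2 fit that leaves out WT replicate 2 was chosen after seeing the data. The scripts were tested on simulated data. Levels per kb used the exon union length. The receptors, pathway lists and marker lists were chosen with earlier results of these data known. All 10 receptors are named, and of each pathway list the 3 genes with the highest mean CPM and any with an unadjusted p under 0.05 over all 6 libraries. Promoter windows came from RefSeq.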

Additional observations from a re-analysis of the deposited data

How the results depend on the processing

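The count of receptors called at an unadjusted p under 0.05 was 1 of 10 over all 6 libraries, 0 with filterByExpr, which drops Tnfrsf19, 0 with the replicate block, and 0 to 2 when 1 library was left out. After adjustment the count was 0 in all of these. The unadjusted share over all genes was 1.81%, 1.13%, 0.555% and 0.425% to 5.71% in the same order. The median log2 fold change of -0.20 ranged from -0.32 to -0.0345 when 1 library was left out, with the high end without WT replicate 1, and was -0.17 with the replicate block. Direction turned for 6 of the 10 receptors. Tnfrsf9 was at 0.00 under DESeq2 (0.00375) and under median-of-ratios scaling (0.00374), at 0.23 with the replicate block, and at -0.37 to 0.78 with 1 library left out. Tnfrsf1a was at -0.0211 with library size only and at -0.10 to 0.38 with 1 library left out. Fas was at 0.00377 with voomWithQualityWeights, 0.0802 with DESeq2 without WT replicate 2, and -0.34 to 0.0825 with 1 library left out. The same ranges were -0.44 to 0.0276 for Tnfrsf4, -0.31 to 0.26 for Tnfrsf18 and -0.39 to 0.10 for Tnfrsf1b. Of those that kept their direction, the range was -0.64 to -0.10 for Tnfrsf8, -0.67 to -0.05 for Tnfrsf25 and -0.32 to -0.10 for Cd27. The cause was not tested. Tnfrsf19 was no longer called at an unadjusted p under 0.05 by edgeR with the replicate block, or without WT replicate 1, cKO replicate 1 or cKO replicate 3. Same-numbered WT and cKO libraries deviated from their group means with correlations of 0.114, -0.0941 and 0.211 over 11568 genes, so the numbers were not taken to pair them. The replicate block gave 85 genes at an unadjusted p under 0.05 against 277 without it, and leaving out 1 library gave 65 to 874. With the longest transcript as length, the order of levels per kb was the same, with Cd27 at 128 and Fas at 32.5 CPM per kb. With 3 libraries a group, the interval of Tnfrsf9, the widest of the 9 receptors above 10 CPM, reached from 0.440-fold to 2.26-fold. The data are compatible with changes anywhere inside such intervals.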

Other observations

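Some genes of the pathway lists were highest in WT replicate 1, like 5 of the receptors, and they were picked after their values were seen. Traf1 was at 632, 527 and 451 CPM in WT replicates 1 to 3, against 535, 504 and 423 CPM in cKO replicates 1 to 3. Tnfsf9, which encodes the ligand of 4-1BB, was at 61.2, 46.7 and 33.7 CPM in WT and at 54.5, 40.1 and 30.6 CPM in cKO. In both genes, as in Tnfrsf1b, WT replicate 1 was the highest of the 6 and the groups overlapped. WT replicate 1 was the highest library for 19.5% of the genes above 10 CPM. Tnfrsf9 and Tnfrsf18 were lowest in WT replicate 2, whereas Traf1 and Tnfsf9 were lowest in cKO replicate 3.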
